A study of Mus musculus with 144 samples.

Results

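Chromosomes 1, 2, 4 and 5 are 4 of the 19 mouse autosomes, and 4 of the 21 chromosomes (with X and Y) for which a copy number state was given in each single cell. They were chosen by the measured states themselves, because they were above 2 copies in most cells of T-ALL 2 and in a minority of cells of T-ALL 1, both mouse T-cell acute lymphoblastic lymphomas (T-ALLs). How often each was gained is therefore a description of that choice. The combinations of gains, the states above 3 copies and the other chromosomes of the same cells are given as descriptions too, with no test. States above 2 are called gains here, and states below 2 losses.

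Single nuclei of both T-ALLs and of an untransformed thymus were analyzed by whole-genome sequencing. T-ALL 2 and T-ALL 1 each came from a mouse that was f/f (floxed on both alleles) for Mad2 and for p53 and carried Lck-Cre (Lck-Cre+). The thymus came from a mouse that was wt at Mad2 and at p53 and had no Cre (Lck-Cre-), and all were of strain C57BL/6/Sv129. In the Lck-Cre mice the promoter of Lck, a kinase of T cells, drives Cre, so that floxed alleles are deleted from an early thymocyte stage, before CD4 and CD8 are expressed. The tumor mice were killed when they showed dyspnea and had an enlarged thymus and lymph nodes. The ages of the animals are not given in the labels. A mouse of the tumor genotype without a tumor and a Cre+ mouse with wild type alleles were not among the samples analyzed here, so genotype and transformation cannot be told apart. Each group was 1 animal, whose cells are not replicates, so nothing was tested between animals. DNA data hold no expression, and the labelled cell type could not be checked against markers.

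Mad2 acts in the spindle assembly checkpoint and holds back anaphase while any chromosome is still unattached. Cells without it missegregate whole chromosomes, and p53 is a tumor suppressor that restrains the growth of cells after such errors. In T-ALL, an aggressive cancer of thymocytes, whole-chromosome gains add a copy of every gene on the chromosome, and cells of 1 tumor can differ in which chromosomes they have gained.

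States were given for 44 of 46 single cells of T-ALL 2, 46 of 46 of T-ALL 1 and 45 of 46 of the thymus, which gave 176, 184 and 180 states on the 4 chromosomes. None were given for T-ALL 2 cells 29 and 39 or for thymus cell 3. Read depth per cell is unknown, so the error of a single state could not be given. All intervals are exact Clopper-Pearson 95% intervals that cover the counting of cells only.

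Chr5 and Chr4 were gained in nearly every cell of T-ALL 2, Chr1 in most and Chr2 least often. Chr5 had 3 copies in 41 cells, 4 copies in 2 cells and 1 copy in 1 cell, so that 43 of 44 cells carried a gain (97.7%, interval 88.0% to 99.9%). Chr4 had 2 copies in 3 cells, 3 in 37, 4 in 3 and 5 in 1, a gain in 41 cells (93.2%, interval 81.3% to 98.6%). Chr1 had 2 copies in 6 cells, 3 in 37 and 4 in 1, a gain in 38 cells (86.4%, interval 72.6% to 94.8%). Chr2 had 1 copy in 2 cells, 2 in 11 and 3 in 31 (70.5%, interval 54.8% to 83.2%). The intervals of neighbors in this order overlapped, and those of Chr5 and Chr2 did not. Within cells, Chr2 was at a lower state than Chr5 in 13 cells, at the same state in 31 and at a higher state in 0. Chr2 was below Chr4 in 15 cells and above it in 3.

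In T-ALL 1 the same chromosomes were at 2 copies in most cells. Chr4 was gained in 13 of 46 cells (28.3%, interval 16.0% to 43.5%), Chr1 in 12 (26.1%, interval 14.3% to 41.1%), Chr5 in 10 (21.7%, interval 10.9% to 36.4%) and Chr2 in 8 (17.4%, interval 7.82% to 31.4%). All of these intervals overlapped. Chr2 had the smallest share of the 4 in both tumors, although in T-ALL 1 it could not be separated from the others at this number of cells. In the thymus all 180 states were 2. A gain in 0 of 45 cells allows a share of up to 7.87% of cells by the exact interval.

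**Figure D1:**
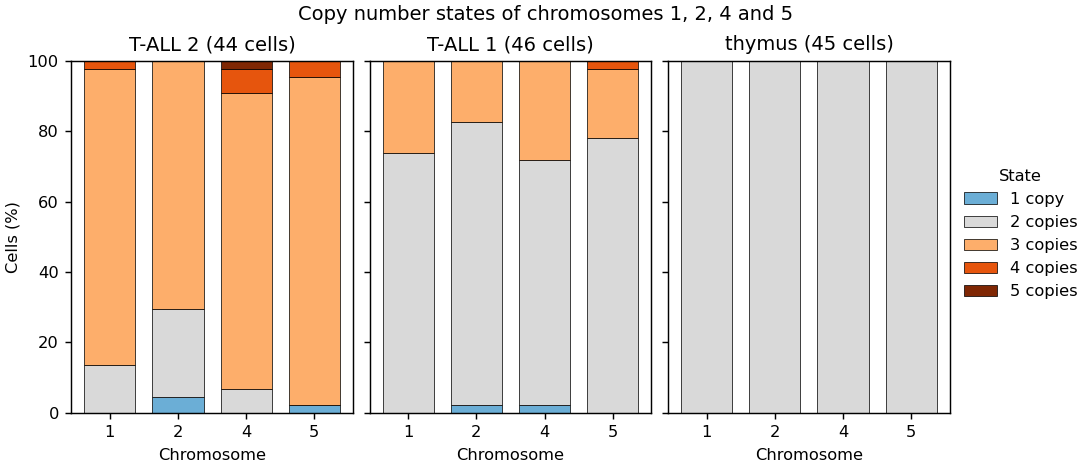
Share of cells (y axis, percent) at each copy number state (colors) of chromosomes 1, 2, 4 and 5 (x axis) in T-ALL 2 (44 cells), T-ALL 1 (46 cells) and the thymus (45 cells). Most T-ALL 2 cells had 3 copies of each, most T-ALL 1 cells had 2, and all thymus cells had 2.

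Mean states were 3.00 ± 0.374 for Chr5, 3.05 ± 0.480 for Chr4, 2.89 ± 0.387 for Chr1 and 2.66 ± 0.568 for Chr2 in T-ALL 2 (SD, 44 cells), against 2.24, 2.26, 2.26 and 2.15 for the same chromosomes in the 46 cells of T-ALL 1 (SDs of 0.420 to 0.491). The share of cells with a gain was higher in T-ALL 2 by 76.0 percentage points for Chr5, 64.9 for Chr4, 60.3 for Chr1 and 53.1 for Chr2. The most common state was above 2 for 4 of the 4 chromosomes in T-ALL 2, where 36.8% of all 19 autosomes met this, and for 0 of 4 in T-ALL 1, where 21.1% did. The gain intervals lay apart, with T-ALL 2 higher, for 4 of 4, against 26.3% of all autosomes. These counts restate how the chromosomes were chosen. The least often gained of them in T-ALL 2, Chr2 with 31 cells, was followed by Chr12 with 16 cells, whose most common state was 2.

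Although each chromosome was gained in a minority of T-ALL 1 cells, together they stood above most of the other autosomes that were mainly at 2 copies in that tumor. Their gain shares in T-ALL 1 were 17.4% to 28.3%, with a median of 23.9%, against 2.17% to 23.9%, with a median of 4.35%, for the 11 other autosomes whose most common state was 2. In order of cells gained among the 19 autosomes of T-ALL 1, they took places 5 (Chr4), 6 (Chr1), 8 (Chr5) and 9 (Chr2), behind Chr14 to Chr17. Only Chr12, gained in 11 cells, stood among them. The interval of Chr2 (7.82% to 31.4%) overlapped that of Chr3, the next in order with 5 cells (10.9%, interval 3.62% to 23.6%). The states of T-ALL 1 were part of how the 4 chromosomes were chosen, so this order is a description. With 1 animal per tumor, whether this order would recur in another mouse was not tested.

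The next comparison asked in which combinations the gains occurred. The most common combination in T-ALL 2 was a gain of all 4 chromosomes, found in 26 of 44 cells (59.1%, interval 43.2% to 73.7%). A further 13 cells (29.5%) had gained 3 of them and 5 cells (11.4%) had gained 2, and 0 cells had gained 1 or none, which allows up to 8.04% by the exact interval. The mean was 3.48 ± 0.698 of the 4 per cell (SD over 44 cells), with a median of 4. In T-ALL 1 the most common combination was a gain of none, in 22 of 46 cells (47.8%, interval 32.9% to 63.1%). A single gain was found in 14 cells (30.4%), 2 gains in 4 cells (8.70%), 3 gains in 3 cells (6.52%) and all 4 gains in 3 cells (6.52%, interval 1.37% to 17.9%). The mean was 0.935 ± 1.20 per cell (SD over 46 cells), with a median of 1.

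T-ALL 2 held 7 combinations of gains. After the 26 cells with all 4, the largest group was 9 cells with Chr1, Chr4 and Chr5 but no gain of Chr2 (cells 3, 5, 6, 7, 9, 11, 13, 19 and 42). Another 3 cells had Chr4 and Chr5 alone (4, 21 and 34). Chr2, Chr4 and Chr5 were gained in cells 1 and 8, Chr1, Chr2 and Chr5 in cells 16 and 33, Chr2 and Chr5 in cell 22, and Chr1 and Chr4 in cell 40. A gain of Chr2 was thus the gain most often lacking. It was absent from 13 cells, 9 of which had the other 3 gains. Chr1 was not gained in 6 cells (2 with the other 3 gains), Chr4 in 3 cells (2 with the other 3) and Chr5 in cell 40 only. None of the 4 chromosomes was gained alone in a T-ALL 2 cell.

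T-ALL 1 was spread over 11 combinations. Chr1 was gained alone in 6 of the 12 cells that had gained it (cells 12, 15, 23, 36, 39 and 40), Chr4 alone in 4 of 13 (1, 13, 14 and 19), Chr5 alone in 3 of 10 (20, 34 and 37) and Chr2 alone in 1 of 8 (cell 8). Chr1 with Chr4 was found in cells 2 and 24, Chr2 with Chr4 in cell 5, Chr4 with Chr5 in cell 33, Chr2 with Chr4 and Chr5 in cells 10 and 44, and Chr1 with Chr2 and Chr5 in cell 21. The full set of 4 that prevailed in T-ALL 2 was present in cells 3, 4 and 32 of T-ALL 1. Cells 4 and 32 each had 10 or more autosomes away from 2 copies, and without all such cells the full set was found in 1 of 42 cells (2.38%). The combination of Chr1, Chr4 and Chr5 without Chr2, the second most common in T-ALL 2, was seen in 0 cells of T-ALL 1.

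**Figure D2:**
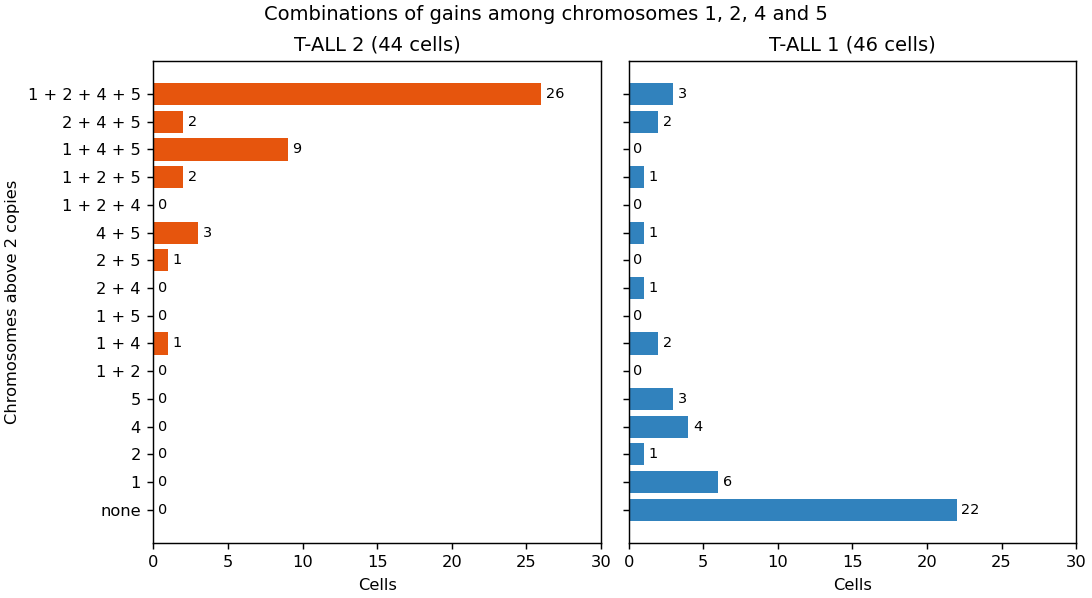
Number of cells (x axis) with each of the 16 possible combinations of gains among chromosomes 1, 2, 4 and 5 (y axis) in T-ALL 2 (44 cells) and T-ALL 1 (46 cells). All 4 gained was the most common entry in T-ALL 2 with 26 cells, and none gained in T-ALL 1 with 22.

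Counting exact states rather than gains, T-ALL 2 had 13 patterns and T-ALL 1 had 14, against 1 in the thymus. In T-ALL 2, 3 copies of all 4 chromosomes were found in 22 cells (50.0%) and 3 copies with Chr2 at 2 in 6 cells (13.6%). In T-ALL 1, 2 copies of all 4 were found in 22 cells (47.8%), a single extra Chr1 in 5 cells and a single extra Chr4 in 4 cells. Patterns that were seen in 1 cell only made up 7 cells of T-ALL 2 (15.9%, interval 6.64% to 30.1%) and 8 cells of T-ALL 1 (17.4%, interval 7.82% to 31.4%). Cells that shared a pattern still differed elsewhere. The 22 T-ALL 2 cells with 3 copies of each held 12 different sets of states over the 19 autosomes, and the 22 T-ALL 1 cells with 2 copies of each held 10.

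Pairwise co-gain was set against the count that the product of the gain shares gives, with phi, the correlation of the gains of 2 chromosomes over cells, as a description. The cells of a tumor share descent and the 4 states of a cell share 1 library, so phi has no test here. In T-ALL 2 the observed counts lay close to the products for all 6 pairs. Chr4 and Chr5 were both gained in 40 cells (product 40.1, phi -0.04, 44 cells), Chr1 and Chr5 in 37 (37.1, phi -0.06), Chr1 and Chr4 in 36 (35.4, phi 0.16), and Chr2 and Chr5 in 31 (30.3, phi 0.24). Chr1 and Chr2 were both gained in 28 cells (26.8, phi 0.18) and Chr2 and Chr4 also in 28 (28.9, phi -0.18). With Chr5 gained in all cells but 1 and Chr4 in all but 3, these values rest on very few cells without a gain. The signs of the pair Chr1 and Chr4 and of the pair Chr4 and Chr5 were opposite when a gain meant exactly 3 copies (phi -0.02 and 0.13).

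The cells of T-ALL 2 that lacked a gain of Chr2 and those that lacked a gain of Chr4 did not coincide. Chr4 was gained in 28 of 31 cells with a Chr2 gain (90.3%, interval 74.2% to 98.0%) and in 13 of 13 without (interval 75.3% to 100%). Chr1 was gained in 28 of 31 cells with a Chr2 gain (90.3%) and in 10 of 13 without (76.9%). In both cases the intervals overlapped.

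In T-ALL 1 the gains of Chr2, Chr4 and Chr5 fell in the same cells more often than the products. Chr2 and Chr5 were both gained in 6 cells (product 1.74, phi 0.59, 46 cells), Chr2 and Chr4 in 6 (2.26, phi 0.48) and Chr4 and Chr5 in 6 (2.83, phi 0.37). Chr1 stood less close to the others, with 4 cells shared with Chr2 (2.09, phi 0.25), 5 with Chr4 (3.39, phi 0.18) and 4 with Chr5 (2.61, phi 0.17). All 6 values of phi were above 0. The value for Chr1 and Chr4 was -0.07 in the odd-numbered cells alone (23 cells). Without the T-ALL 1 cells that had 10 or more autosomes away from 2 copies (42 cells left), phi was 0.14 for Chr1 with Chr2, 0.05 for Chr1 with Chr4 and 0.05 for Chr1 with Chr5, and Chr1 shared 2, 3 and 2 cells with them. The pairs among Chr2, Chr4 and Chr5 then shared 4 cells each, with phi of 0.62 for Chr2 and Chr5, 0.45 for Chr2 and Chr4 and 0.31 for Chr4 and Chr5.

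Of the 12 such comparisons in T-ALL 1, the largest differences involved Chr2. Chr5 was gained in 6 of 8 T-ALL 1 cells with a Chr2 gain (75.0%, interval 34.9% to 96.8%) and in 4 of 38 without (10.5%, interval 2.94% to 24.8%), and these intervals did not overlap. Chr4 was gained in 6 of 8 cells with a Chr2 gain and in 7 of 38 without (18.4%, interval 7.74% to 34.3%), where the intervals lay barely apart. The same pair in the other direction overlapped, with Chr2 gained in 6 of 13 cells with a Chr4 gain (46.2%, interval 19.2% to 74.9%) and in 2 of 33 without (6.06%, interval 0.743% to 20.2%). Chr2 was gained in 6 of 10 cells with a Chr5 gain (60.0%, interval 26.2% to 87.8%) and in 2 of 36 without (5.56%, interval 0.680% to 18.7%), again without overlap. Chr5 was gained in 6 of 13 cells with a Chr4 gain (46.2%, interval 19.2% to 74.9%) and in 4 of 33 without (12.1%, interval 3.40% to 28.2%), where the intervals overlapped. For the pairs with Chr1 all intervals overlapped. Chr1, for example, was gained in 4 of 8 cells with a Chr2 gain (50.0%, interval 15.7% to 84.3%) and in 8 of 38 without (21.1%, interval 9.55% to 37.3%). Pairs of other autosomes were not compared by such intervals, so whether these differences are particular to the 4 chromosomes was not tested.

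**Figure D3:**
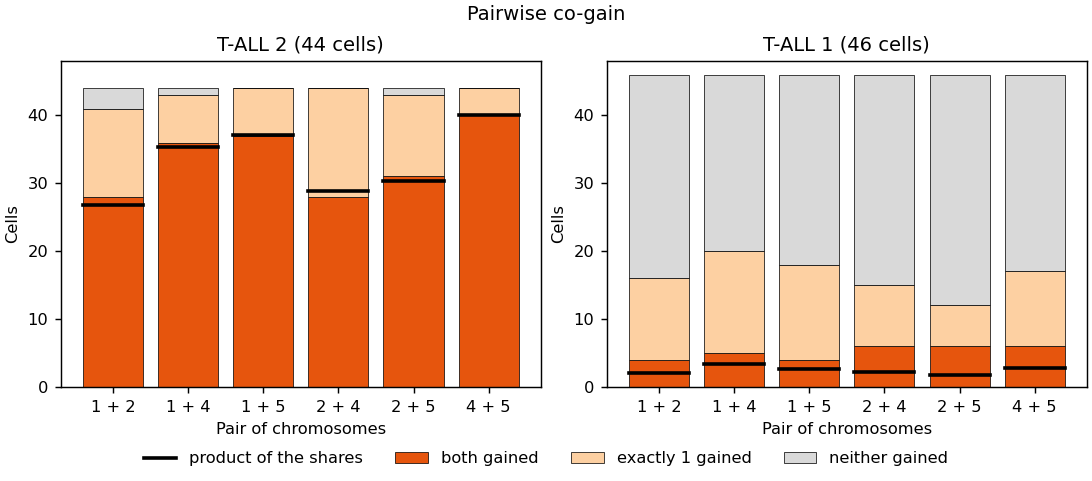
Cells (y axis) in which both, exactly 1 or neither chromosome of each of the 6 pairs (x axis) was gained in T-ALL 2 (44 cells) and T-ALL 1 (46 cells), with black lines at the count given by the product of the gain shares. The lines lie close to the top of the dark bars in T-ALL 2, and below it for all 6 pairs in T-ALL 1.

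Positive values of phi were also common among other pairs of autosomes in T-ALL 1. Over the 9 autosomes of that tumor with at least 5 gained and at least 5 other cells, the median phi was 0.31 for the 6 pairs among Chr1, Chr2, Chr4 and Chr5, 0.17 for the 20 pairs of these with another autosome and 0.13 for the 10 pairs of other autosomes. It was above 0 for 30 of all 36 pairs. The highest phi was 0.59 among the 6 pairs and 0.55 among the 10 pairs of other autosomes. Without the T-ALL 1 cells that had 2 copies of every autosome, the median over the 6 pairs was 0.30 (43 cells), against 0.22 for all 21 pairs that could then be formed. The highest of the 6 was then 0.59, against 0.23 for the 3 pairs of other autosomes left. In T-ALL 2 only Chr1 and Chr2 of the 4 met the minimum, with a phi of 0.18, against a median of 0.04 over all 10 pairs.

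Gains beyond 3 copies were rare on the 4 chromosomes. In T-ALL 2, 7 of 44 cells had a state above 3 on at least 1 of them (15.9%, interval 6.64% to 30.1%), each on a single chromosome. Chr4 had 4 copies in cells 3, 36 and 46 and 5 copies in cell 40. Chr5 had 4 copies in cells 6 and 24, and Chr1 had 4 copies in cell 15. Chr2 was never above 3. In T-ALL 1 the only such state was 4 copies of Chr5 in cell 34 (2.17% of cells, interval 0.0550% to 11.5%). States above 3 were thus 3.98% of the 176 states in T-ALL 2 and 0.543% of the 184 states in T-ALL 1. On the 15 other autosomes they made up 8.18% of states in T-ALL 2 and 7.39% in T-ALL 1. On those of the 15 with a most common state of 2, the shares were 0.568% and 0.395%.

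Nearly all gained states of these chromosomes were at exactly 3 copies. Some clonally gained autosomes outside the 4 (those with a most common state above 2) shared this level, but Chr14 and Chr15 did not. In T-ALL 1 the 4 chromosomes were not clonally gained themselves, as their most common state was 2. In T-ALL 2, 146 of 153 gained states (95.4%) on Chr1, Chr2, Chr4 and Chr5 were at exactly 3 copies, against 95.2% on Chr17, 75.6% on Chr15 and 11.4% on Chr14. In T-ALL 1 it was 42 of 43 (97.7%), against 100% on Chr16, 96.8% on Chr17, 42.9% on Chr15 and 38.5% on Chr14. The other autosomes with a most common state of 2 were also near the value of the 4 chromosomes, and exactly 3 copies made up 93.3% of gained states for T-ALL 2 and 94.4% for T-ALL 1.

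Losses of the 4 chromosomes were also few, and so were those of the other autosomes. States below 2 made up 1.70% of the states on the 4 chromosomes in T-ALL 2, against 1.52% on the 15 other autosomes. In T-ALL 1 these shares were 1.09% and 2.75%. In T-ALL 2, cell 7 had 1 copy of Chr2 beside 3 copies each of Chr1, Chr4 and Chr5. Cell 40 had 1 copy of Chr2 and 1 of Chr5 together with 3 of Chr1 and 5 of Chr4, and 14 of its autosomes were not at 2 copies. It was the only T-ALL 2 cell without a gain of Chr5, and without it Chr5 was gained in 100% of 43 cells. In T-ALL 1, cell 37 had 1 copy of Chr4 and 3 of Chr5, and cell 39 had 1 copy of Chr2 and 3 of Chr1. Cell 34, with 4 copies of Chr5, had 10 autosomes away from 2 copies, 4 of them lost. Read counts were not among the data used here, so the part of library quality in these cells was not tested.

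The remaining autosomes of the same cells were compared next. In T-ALL 1, the 24 cells with at least 1 of the 4 chromosomes gained had gained 4.79 ± 1.22 of the 15 other autosomes, and the 22 cells with none had gained 3.32 ± 1.78 (SD over cells). Leaving out Chr14 to Chr17, which were gained in most cells, the numbers were 1.13 ± 1.23 and 0.409 ± 0.959. Chr15 was gained in 24 of 24 cells with at least 1 of the gains and in 18 of 22 with none, and Chr17 in 20 of 24 and 11 of 22. The 22 cells with none included cells 25, 27 and 41, with 0 other autosomes gained, and cell 38, with 1. Those cells had 2 copies of Chr15 and of Chr17, and they were the only ones with none that lacked a Chr15 gain. They lowered the mean of the cells with none, and the comparison was not repeated without them. The ranges overlapped, at 3 to 8 and 0 to 7 other autosomes gained. In T-ALL 2 the means lay closer together. Cells with all 4 gains had 3.85 ± 0.834 other autosomes gained (26 cells), cells with 3 gains 3.85 ± 1.34 (13 cells) and cells with 2 gains 4.40 ± 1.52 (5 cells, among them cell 40 with 7). Whether the relation differed between the tumors was not tested.

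**Figure D4:**
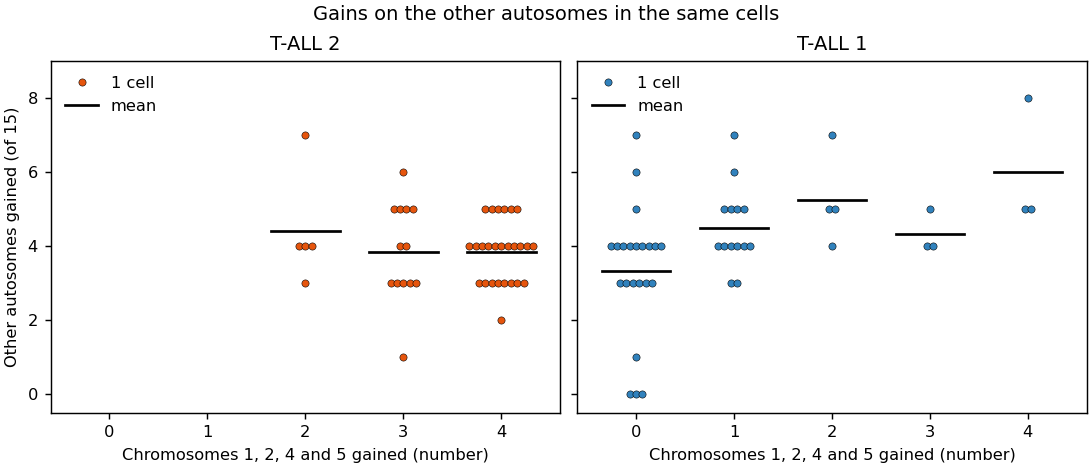
Number of the 15 other autosomes gained (y axis) in each cell (points) by how many of chromosomes 1, 2, 4 and 5 it had gained (x axis) in T-ALL 2 and T-ALL 1, with the mean of each column as a black line. The T-ALL 1 cells with none of the 4 gained reach down to 0 other gains, and the T-ALL 2 cells lie between 1 and 7.

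Of the 4 chromosomes, Chr1 differed most between T-ALL 1 cells with and without the full set of Chr14, Chr15, Chr16 and Chr17 gains. The set was complete in 12 of 12 cells with a Chr1 gain (interval 73.5% to 100%) and in 15 of 34 without (44.1%, interval 27.2% to 62.1%). Without the 4 cells that had 2 copies of Chr14, Chr15, Chr16 and Chr17, it was complete in 15 of the 30 remaining cells with no Chr1 gain (50.0%, interval 31.3% to 68.7%). The intervals did not overlap in either case. The set was complete in 5 of 8 cells with a Chr2 gain and 22 of 38 without, in 8 of 13 with a Chr4 gain and 19 of 33 without, and in 6 of 10 with a Chr5 gain and 21 of 36 without, and all of these intervals overlapped. Chr17 alone was gained in 12 of 12 cells with a Chr1 gain and in 19 of 34 without. The comparison was chosen after the values were seen. Other autosomes were not compared with the set in this way, so whether Chr1 stands apart from them was not tested.

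Chr14 was at 2 copies in 7 cells of T-ALL 1. In 4 of them (25, 27, 38 and 41) Chr15, Chr16 and Chr17 were also at 2 and none of the 4 chromosomes was gained. The other 3 (cells 1, 10 and 33) all had 3 copies of Chr4 and 2 copies of Chr1, and cells 10 and 33 also had 3 copies of Chr5. In T-ALL 2, Chr14 was gained in all 44 cells, and Chr15 was at 2 copies in cells 1, 3 and 9. Each of these 3 cells had gained Chr4 and Chr5 and lacked a gain of Chr1 (cell 1) or of Chr2 (cells 3 and 9).

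The wells with 10 cells gave a single state per chromosome for each animal. That of T-ALL 2 had 3 copies of Chr1, Chr2 and Chr4 but 2 copies of Chr5, a state of Chr5 found in 0 of the 44 single cells of the same tumor. That of T-ALL 1 had 2 copies of Chr1, Chr2 and Chr5 and 3 of Chr4, the state of Chr4 in 13 of 46 single cells. The thymus well had 2 copies of all 4. There was 1 such well per animal, and the wells with 0 cells had no states.

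The genes on these chromosomes carried the state of the whole chromosome, and expression was not measured. On Chr5, Cdk6, a cyclin-dependent kinase that drives entry into S phase (chr5:3341004-3531008 in mm10), was at 3 or more copies in 43 of 44 T-ALL 2 cells and 10 of 46 T-ALL 1 cells. On Chr4, the transcription factor Tal1, an oncogene of human T-ALL (chr4:115056426-115071755), the cytokine receptor kinase Jak1 (chr4:101151974-101265282) and the tumor suppressor Cdkn2a, often deleted in human T-ALL (chr4:89274473-89294619), were at 3 or more copies in 41 of 44 and 13 of 46 cells. An extra Chr4 thus added a copy of oncogenes and of a tumor suppressor alike, and the 5 copies of Chr4 in cell 40 of T-ALL 2 were the highest state of any listed gene on the 4 chromosomes. On Chr1, Bcl2, an inhibitor of apoptosis (chr1:106538176-106714290), was at 3 or more copies in 38 of 44 T-ALL 2 cells and 12 of 46 T-ALL 1 cells. On Chr2, the receptor Notch1, activated by mutation in many human T-ALLs (chr2:26457902-26503822), and Lmo2, a partner of Tal1 in transcription complexes (chr2:103957903-103981878), were at 3 or more copies in 31 of 44 T-ALL 2 cells and 8 of 46 T-ALL 1 cells. Notch1 and Lmo2 were therefore at 2 copies or fewer in 13 T-ALL 2 cells, 12 of which had 3 or more copies of Cdk6.

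The 4 chromosomes hold 27.0% of the protein-coding genes on the autosomes, and whether listed genes were more common on them was not tested. Of 100 genes in 4 lists, 32 lay on the 4 chromosomes, with 8 on Chr1, 13 on Chr2, 8 on Chr4 and 3 on Chr5. These were 12 of 35 T-ALL oncogenes, 5 of 26 T-ALL tumor suppressors, 9 of 23 genes of the spindle checkpoint and kinetochore and 6 of 16 genes of T-cell receptor signaling and recombination. The tumor suppressors were Cdkn2a and Cdkn2b on Chr4, Gata3 and Wt1 on Chr2 and Ptprc on Chr1. Chr2 held the checkpoint kinase Bub1 and its relative Bub1b, the kinetochore scaffold Knl1 and the recombinase genes Rag1 and Rag2. Chr4 held Cdc20, the activator of the anaphase-promoting complex that Mad2 restrains, together with Cdca8 of the chromosomal passenger complex and Lck itself. Chr5 held Mad1l1, the kinetochore partner of Mad2, and Kntc1. Chr1 held Mdm4, an inhibitor of p53, the outer kinetochore gene Nuf2 and 4 genes of T-cell receptor signaling, the kinase Zap70, the receptor chain Cd247, the co-stimulatory receptor Cd28 and the inhibitory receptor Ctla4.

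The 4 chromosomes together hold 5583 of the 20665 protein-coding genes that RefSeq places on the autosomes (27.0%). The median T-ALL 2 cell had all 27.0% of the autosomal coding genes on gained copies of these chromosomes, and the lowest cell 12.3%. In T-ALL 1 the median cell had 5.83%, the lowest 0% and the highest 27.0%. Means were 23.1% ± 5.14 for T-ALL 2 and 6.17% ± 8.17 for T-ALL 1 (SD over cells). On all gained autosomes together the means were 39.8% ± 6.66 and 22.9% ± 13.2, so that Chr1, Chr2, Chr4 and Chr5 carried 58.0% of the genes at a gained copy number in T-ALL 2 and 26.9% in T-ALL 1.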

How the data were processed

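Per the labels, stained nuclei were sorted into plates and their DNA digested with micrococcal nuclease before indexed PCR. The authors deposited 1 table per animal with a whole-number copy number state per chromosome and well. In the submitters' processing notes stand Bowtie2 2.1.0, SAMtools 0.1.18, bcl2fastq 1.8.2 and the build mm10, and the study's methods name AneuFinder. Which program made the deposited states is not given in those sources. Each state is that of a whole chromosome relative to its own library, so partial gains and a doubling of all chromosomes are not resolved.

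Wells were matched to samples by name, with 0 unmatched. Wells without states were left out, and X and Y were not used. The chromosomes and the gene lists were chosen with earlier results of these data known. The genes named are from the lists and lie on the 4 chromosomes, but not every such gene is named. All 100 listed genes were matched in RefSeq (GRCm38.p6, the assembly of mm10). Cells were named for states above 3 or below 2 or for combinations that few cells shared. The comparison with Chr14 to Chr17 was chosen after the values were seen. Alternatives changed the definition of a gain, the cells used, the coding of states and the interval. Python 3.11.15, NumPy 2.4.6, SciPy 1.17.1 and Matplotlib 3.10.9 were used, and the code was tested on simulated data.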

Additional observations from a re-analysis of the deposited data

How the results depend on the processing

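Of 182 alternative values for gain shares, combinations, patterns and states above 3, 169 stayed close to the reported value and 13 moved. Close meant within its interval or, for the number of patterns as a percent of the cells used, within 1.5 times of it. Shares have no sign, so a reversal was not possible. The alternative (Wilson) interval leaves a share unchanged, so its values could not move. As plain counts, patterns in T-ALL 2 were 8 in odd-numbered and 10 in even-numbered cells, against 13. In T-ALL 1 they were 9 in each, against 14. Counting only states above the most common state of T-ALL 2 left gains in 2.27% of its cells for Chr1, 0% for Chr2, 9.09% for Chr4 and 4.55% for Chr5, with all 4 gained in 0% and none in 84.1%, since 3 copies were then the reference. The share of T-ALL 2 cells with a Chr5 gain became 100% in odd-numbered cells, without cells with 10 or more abnormal autosomes, without cells with a loss on the 4 chromosomes, and without cell 40 (left out after seeing the data), all of which left out cell 40. With states collapsed to loss, 2 and gain, distinct patterns in T-ALL 2 came to 18.2% of its cell number, against 29.5%. The share of T-ALL 1 cells with a state above 3 was 0% in odd-numbered cells and without cells with 10 or more abnormal autosomes, both of which left out cell 34. For phi, 17 of 24 alternative values in T-ALL 2 and 25 of 36 in T-ALL 1 stayed within 0.1 of the reported value and kept its sign. The 24 do not include the pairs with Chr5 in the settings that left out cell 40. There Chr5 was gained in every cell and phi has no value, so the reported phi of those pairs rests on cell 40. In T-ALL 2 the pair Chr1 and Chr4 gave -0.0725 in odd-numbered cells and -0.0193 with a gain of exactly 3 copies, and Chr4 and Chr5 gave 0.129 with exactly 3 copies. In T-ALL 1 only Chr1 and Chr4 changed sign, to -0.0731 in odd-numbered cells. The cause was not tested.

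Read depth is unknown, so a wrong state in a single cell, such as cell 34 or cell 40, cannot be told from a real one here. No paired analysis was possible because each animal is 1 sample and no result comes from a test.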
